A study of Mus musculus with 24 samples.

Results

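Of the 24 RNA-seq libraries of the series, 4 carry the label of bone marrow-derived macrophages (BMDMs) and the number 3 but hold transcripts of fibroblast-type cells. Fibroblasts are the matrix-producing cells of connective tissue. The 4 libraries were chosen by their measured levels of the collagen genes Col1a1, Col1a2 and Col3a1, so their identity is described here and not tested. Each is the only library of its kind in its group: WT-labelled control, CRE-labelled control, WT-labelled DMXAA and CRE-labelled DMXAA.

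Per the series' text and the methods, bone marrow came from mice with floxed Tmem173 alleles that had received tamoxifen, without Cre (WT) or with Lyz2-Cre ert2 (CRE). Tmem173 encodes STING, and the Lyz2 promoter drives Cre in myeloid cells. BMDMs were grown with culture supernatant of L929, a mouse fibroblast line. DMXAA, a small-molecule agonist of mouse STING, was given at 40 µM per the series' design text, whereas the methods give the dose per mL in µg, so the concentration is uncertain. Neither the time of exposure of these libraries nor what a library number marks was found in the sources used here. With 1 library per label and treatment, p-values of the fit of these 4 libraries measure no spread between replicates of a condition. They set each change against how unlike the WT-labelled and CRE-labelled pairs responded, with 1 residual degree of freedom. Most of the weight lies on a spread shared over genes, with 8.54 prior degrees of freedom. Where 12 libraries are fitted, the spread between libraries may be technical.

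STING sits on the endoplasmic reticulum and, once bound by a cyclic dinucleotide made by the DNA sensor cGAS or by an agonist, recruits the kinase TBK1, which activates the transcription factor IRF3. IRF3 and NF-kB switch on type I interferon and inflammatory genes. Secreted interferon acts through its receptor, JAK kinases and a complex of STAT proteins with IRF9 on interferon-stimulated genes, whose promoters often carry the interferon-stimulated response element (ISRE). Fibroblasts express STING and are a classic cell type for interferon responses.

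Level is given as FPKM as deposited, a fragment count scaled to gene length and library depth. Col1a1, a chain of type I collagen, had 465 to 1081 FPKM in the 4 libraries numbered 3 and 1.31 to 15.9 FPKM in the 8 BMDM libraries numbered 1 and 2, so the library nearest the boundary on the inside had 465 FPKM and the nearest on the outside 15.9 FPKM. Col1a2 had 332 to 440.1 FPKM against 1.42 to 27.7, and Col3a1 127 to 189 FPKM against 0.12 to 2.61. Of 19 fibroblast markers, 17 reached 1 FPKM in each of the 4 libraries. The exceptions were Fap and Lum, at no more than 0.0751 and 0.135 FPKM, and Pdpn, at 10.9 to 17.7 FPKM, was below the 19.1 to 69.5 FPKM of the other 8 libraries. Of those 8, the WT-labelled control and DMXAA libraries numbered 2 each had 15 of the 19 markers at 1 FPKM or more. The list summed to 184.5 and 223 FPKM in them. Lists for related cells held mural, adipocyte or reticular stroma, and osteoblast or chondrocyte markers. Of these, Cxcl12 had 33.7 to 66.4 FPKM, Sox9 6.01 to 9.02 and Runx2 2.93 to 5.08 FPKM in the 4 libraries. The other 8 had at most 2.13, 0.493 and 1.65 FPKM. Des and Notch3 were also higher in the 4 libraries, whereas Spp1, Lpl, Fabp4 and Cspg4 were lower. Fibroblast-type is thus not set apart here from these related cell types. The macrophage markers C1qa, C1qb and C1qc had 0 reads in all 4 libraries, and Csf1r, the receptor for the macrophage growth factor, had at most 0.895 FPKM against 325 to 414 FPKM.

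**Figure D1:**
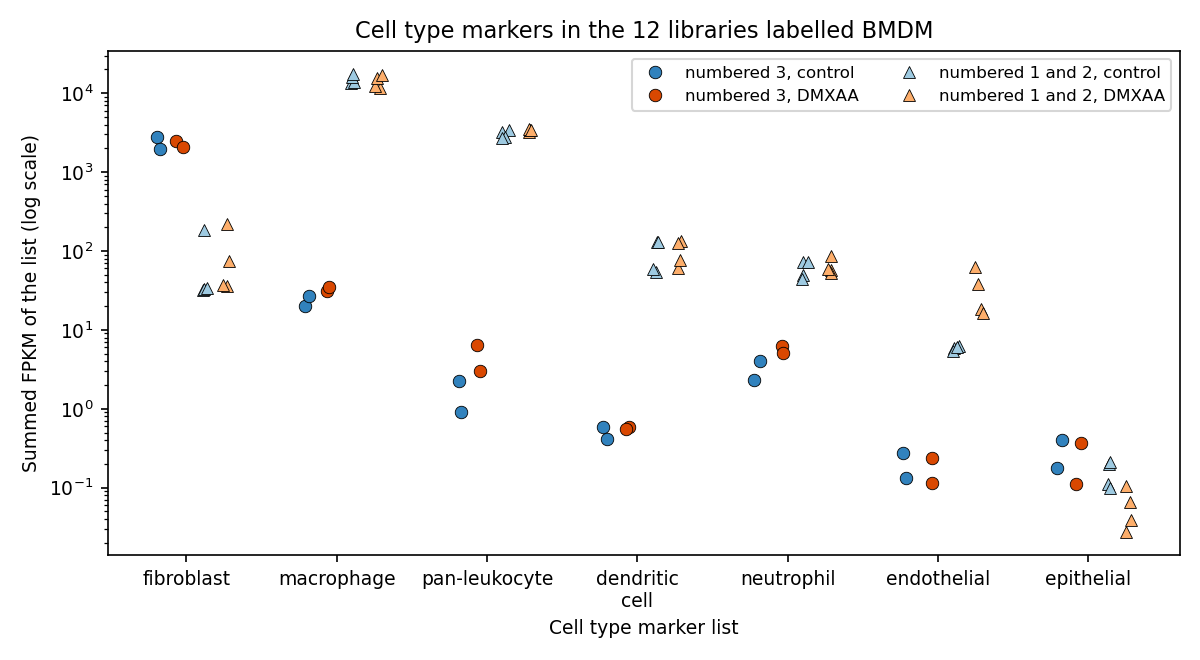
Summed FPKM of 7 cell type marker lists (log axis) in the 12 libraries labelled BMDM, each point 1 library. Circles are the 4 libraries numbered 3, where the fibroblast list summed to 1987 to 2813 FPKM and the macrophage list to 19.9 to 34.7 FPKM, and triangles are the 8 libraries numbered 1 and 2, with 31.8 to 223 and 11710 to 17690 FPKM.

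The macrophage list of 15 genes summed to 19.9 to 26.9 FPKM in the control libraries and 31 to 34.7 FPKM under DMXAA, with 1 gene (Cd14) and 2 to 3 genes above 1 FPKM. The pan-leukocyte list of 10 genes summed to 0.915 to 2.27 and 3.05 to 6.45 FPKM, against 2728 to 3548 FPKM in the other 8 libraries. Both lists were thus higher under DMXAA. Lyz2, the lysozyme of myeloid cells, had 0.832 and 0.538 FPKM in control and 4.94 and 5.62 FPKM under DMXAA (log2 fold change 2.94 ± 0.29, adjusted p 0.000171 in edgeR), and Cd53, a leukocyte tetraspanin, had 2.1 and 0.407 FPKM in control and 5.62 and 2.04 FPKM under DMXAA, while Ptprc (CD45) stayed at or below 0.0134 FPKM. Of markers too low for the 4-library test, Ctss, a lysosomal protease, had 0 and 0 to 0.394 and 0.12 FPKM, Lcp1, a leukocyte actin bundler, 0 and 0.00497 to 0.0693 and 0.0516 FPKM, and Rac2, a small GTPase of leukocytes, 0 and 0 to 0.0796 and 0.079 FPKM. In the fit with the spread of all 12 BMDM libraries, 2 macrophage and 3 leukocyte markers rose. In bulk libraries fewer cells of a type and less RNA per cell cannot be told apart. The Y-linked genes Ddx3y, Eif2s3y and Kdm5d had 0 FPKM in all 4 libraries and Xist at most 0.00688 FPKM, whereas Ddx3y had 11.9 to 15.5 FPKM in the other 8. Whether these 4 libraries come from the labelled mice could not be told from the files, so WT and CRE name them here only as labelled. Total counts were 16768345 to 18900188 in the 4 libraries and 16470157 to 18912887 in the other 8.

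DMXAA was followed by a strong interferon-stimulated program and a weaker fall of sterol synthesis, contractile and cell cycle genes in these libraries. The 2 DMXAA libraries were compared with the 2 control libraries, with the label as a block, to see how fibroblast-type cells responded to the agonist. Of 11073 genes tested with edgeR, 904 (8.16%) were called at an adjusted p under 0.05, of which 546 (4.93%) rose and 358 (3.23%) fell. All 904 moved in the same direction within the WT-labelled pair and within the CRE-labelled pair, which the choice of called genes favours. Among the rises 183 were over 2-fold, 98 over 4-fold and 34 over 16-fold, against 29 falls over 2-fold and 8 over 4-fold. For the count of genes without overlap between treatments, 1503 (13.6%) had both DMXAA libraries above both controls and 1815 (16.4%) had both below. Only 1 residual degree of freedom remained, and the call count depended on the spread assumed. With the spread of all 12 BMDM libraries 107 genes were called, 104 of them rises, and a fit that ignored the label called 0 in edgeR (453 genes had an unadjusted p under 0.05). With treatment alone, leaving out the WT-labelled control gave 88 calls, the CRE-labelled control 35, and either DMXAA library 0.

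**Figure D2:**
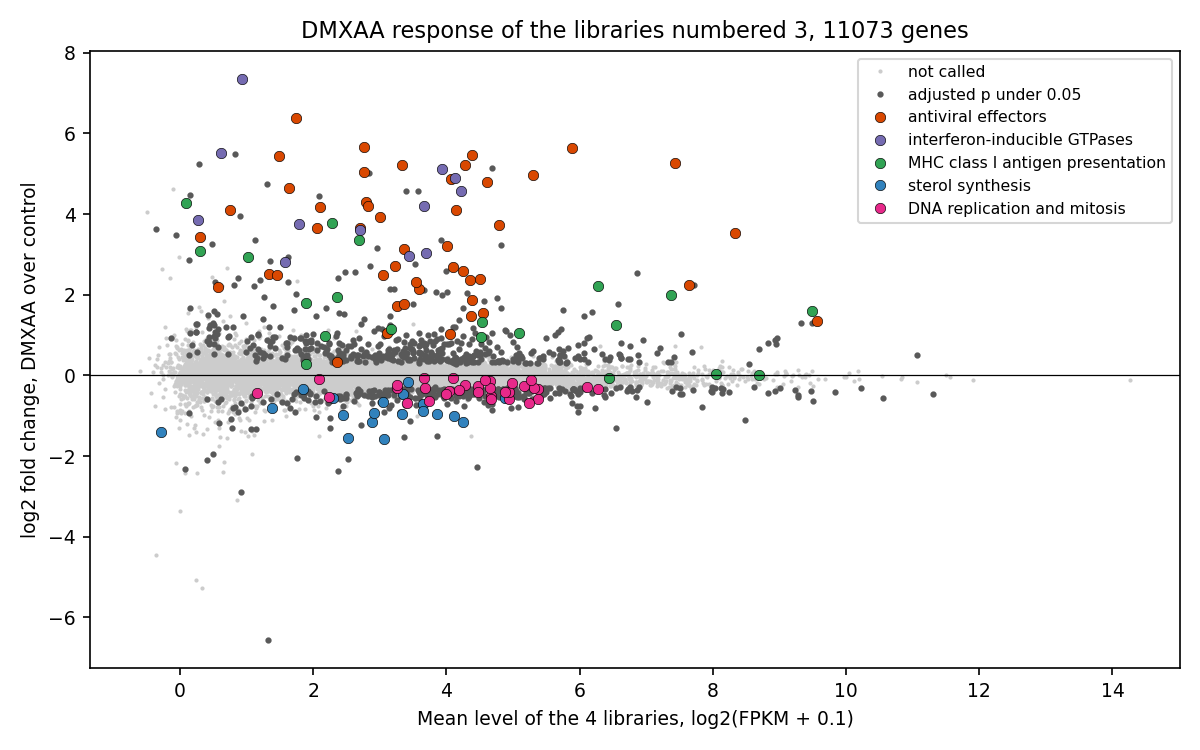
DMXAA response of the libraries numbered 3, as log2 fold change against the mean level of the 4 libraries, log2(FPKM + 0.1), each point 1 of 11073 genes. Antiviral effectors and interferon-inducible GTPases lie above 0, antigen presentation genes lie above 0 or near it, and sterol synthesis and DNA replication genes lie below 0.

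The antiviral effectors, which block viral entry, translation, replication or release, were the list with most rises. Of 47 tested members 46 rose (97.9%, against 4.93% of all genes) and 0 fell. Their median log2 fold change was 3.42 against -0.0007 over all genes tested. The remaining tested member, Isg20, an exonuclease, had 4.35 and 4.54 FPKM in control and 5.11 and 6.02 FPKM under DMXAA, and 5 of the 52 listed genes (Ifi44l, Ifit1bl1, Oasl1 and Slfn5 among them) were too low to be tested. Testing required 1 FPKM in 2 libraries. Members under 1 FPKM in both controls, such as Oas2, Oas3 and Rsad2, passed only through the DMXAA libraries. The filter thus favours rises in this count and in those of the lists below. Under the spread of 12 libraries 35 of 51 rose, and with 1 library left out of that fit 8 rose without either CRE-labelled library and 17 without either WT-labelled one. Values are given in the order WT-labelled, CRE-labelled. Isg15 (ENSMUSG00000035692, chromosome 4, 156199424 to 156200818 in GRCm38), the ubiquitin-like modifier, had 11.4 and 6.25 FPKM in control and 313 and 363 FPKM under DMXAA. Its log2 fold change was 5.27 ± 0.21 (SE, 2 libraries per treatment, adjusted p 2.9e-07 in edgeR), which is 38.6-fold. Both DMXAA libraries lay far above both controls, and the CRE-labelled DMXAA library was the highest of the 4.

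The IFIT family, whose members bind foreign RNA or its partners, rose strongly. Ifit1 had 3.77 and 1.33 FPKM in control and 89.9 and 62.7 FPKM under DMXAA (log2 fold change 4.98 ± 0.19, adjusted p 2.51e-07 in edgeR), and Ifit3 had 3.86 and 0.974 FPKM in control and 123 and 108 FPKM under DMXAA (5.64 ± 0.28, 1.21e-06). In both genes the WT-labelled library was the higher of each treatment, and the treatments did not overlap. Ifit2 had a small rise by comparison, with 7.21 and 4.04 FPKM in control and 13.5 and 9.2 FPKM under DMXAA (log2 fold change 1.05 ± 0.11). Ifit3b had 1.58 and 0.283 to 41.5 and 40.2 FPKM, but its counts are uncertain because it is nearly identical to Ifit3. The oligoadenylate synthetases, which sense double-stranded RNA, held the 2 steepest rises among called genes with a mean of at least 5 FPKM. Oas3 had 26 and 0 reads in control and 1581 and 619 under DMXAA, or 0.155 and 0 FPKM in control and 9.21 and 3.58 FPKM under DMXAA, and a log2 fold change of 6.38 ± 0.32. Oas2 had 0.492 and 0.0424 FPKM in control and 16.3 and 9.92 FPKM under DMXAA (5.65 ± 0.30). Both were barely detected in the CRE-labelled control.

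Mx1 and Mx2, dynamin-like GTPases that restrict viruses, had 1.38 and 0.0873 FPKM in control and 18.6 and 7.27 FPKM under DMXAA, and 0.944 and 0.144 FPKM in control and 21.7 and 17.3 FPKM under DMXAA. Their log2 fold changes were 4.29 ± 0.31 and 5.21 ± 0.31. Rsad2 (viperin), which makes a chain-terminating nucleotide, stayed low in level, with 0.136 and 0.109 FPKM in control and 7.14 and 3.48 FPKM under DMXAA, although its log2 fold change was 5.43. Ifi44 had 1.92 and 0.331 to 46.8 and 28.1 FPKM and Oasl2 1.39 and 0.859 to 34.6 and 30.1 FPKM. Bst2 (tetherin), which holds virions at the cell surface, and Ifitm3, which blocks viral fusion, were already well expressed in control. Bst2 had 62.5 and 42.3 FPKM in control and 554 and 625 FPKM under DMXAA (log2 fold change 3.53 ± 0.16), and Ifitm3 had 580.4 and 312 FPKM in control and 1133 and 1018 FPKM under DMXAA (1.35 ± 0.15). The cytosolic RNA sensors Ddx58 (RIG-I) and Ifih1 (MDA5) rose by 2.13 and 3.42 on the log2 scale, and Eif2ak2 (PKR), a kinase that stops translation, by 1.87.

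**Figure D3:**
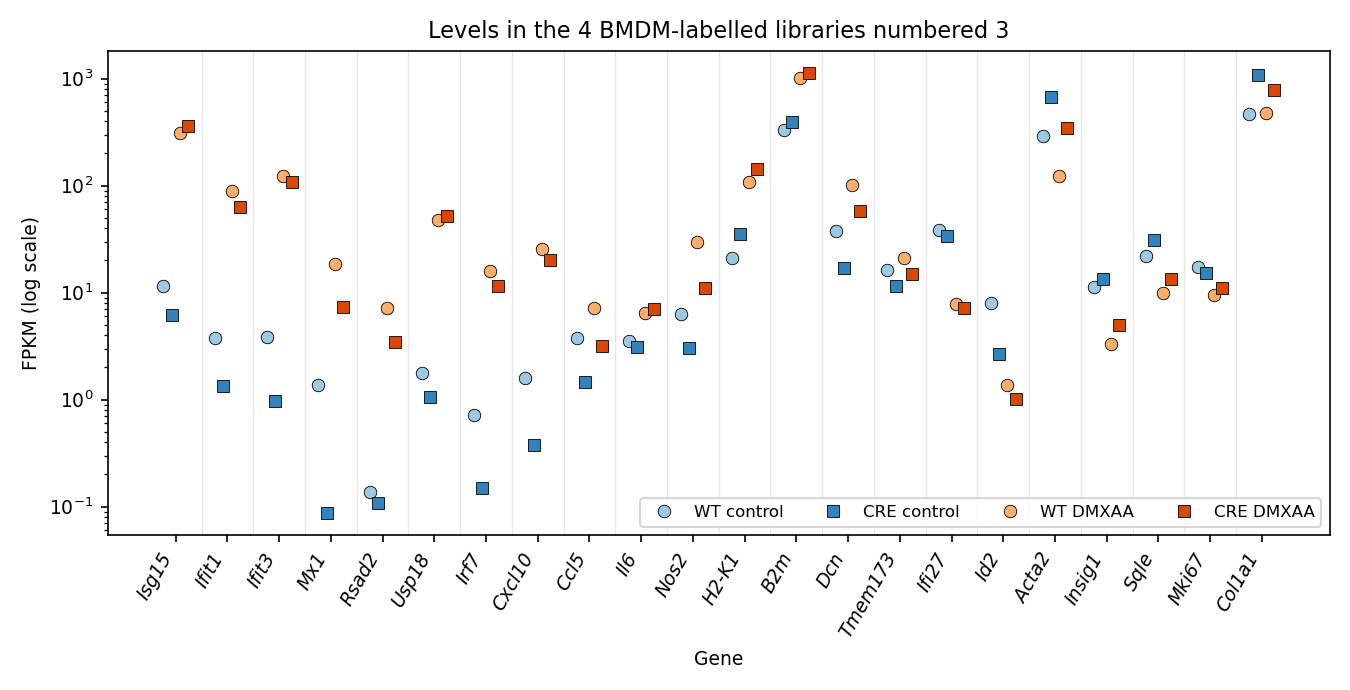
FPKM (log axis) of 22 genes in each of the 4 libraries numbered 3, circles for the WT label and squares for the CRE label, blue for control and orange for DMXAA. For Isg15, Ifit1, Ifit3, Usp18 and Irf7 the points of the 2 treatments do not overlap, whereas Col1a1 had 465 and 1081 FPKM in control and 479.8 and 786 FPKM under DMXAA.

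All 12 tested interferon-inducible GTPases, which attack the membranes of intracellular pathogens, rose, against 4.93% of all genes. Their median log2 fold change was 4.02, and 5 of 17 (Gbp10, Gbp4, Gbp5, Gbp8 and Gvin1) were too low to be tested. Members near 0 in control were tested only because of their DMXAA level, so the count of 12 is no independent result. Among them, Tgtp1 had means of 0.0197 and 3.61 FPKM in control and DMXAA, and Tgtp2 0.0591 and 2.80 FPKM. Igtp had 2.06 and 0.957 FPKM in control and 36.1 and 34.9 FPKM under DMXAA (4.57 ± 0.20), Gbp3 1.88 and 0.506 to 38.8 and 28.3 FPKM (4.88 ± 0.23) and Irgm1 2.73 and 2.91 to 21.1 and 24.8 FPKM (3.03 ± 0.09). Iigp1 had 1.62 and 0.197 FPKM in control and 36 and 23.1 FPKM under DMXAA. The treatments did not overlap in any of these, which for Iigp1 was a condition for naming it. Igtp, Gbp3 and Irgm1 were named for their small p, which favours this. Tgtp1 had 3 and 0 reads in control and 292 and 272 under DMXAA, a ratio of 175 (95% Poisson interval 59.6 to 851, counting error only), and its counts are uncertain because Tgtp2 is nearly identical. Among members that were too low to be tested, Gvin1 had 11 and 3 reads in control and 183 and 124 under DMXAA and Gbp5 1 and 0 reads in control and 80 and 9 under DMXAA. The spread of 12 libraries left 10 of 16 rises, and with any 1 of the 4 libraries left out of that fit 0 rose in edgeR.

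Promoter windows of RefSeq (GRCm38.p6, from 250 bases before to 50 after the start of each gene) were searched on both strands for an ISRE core, spelled GAAA, any 2 bases, GAAA. It was found in 3.99% of 27025 genes with a window, in 3.79% of the 8040 tested genes with one, in 18.1% (74 of 408) of those that rose, in 56.5% (39 of 69) of those that rose over 4-fold and in 2.32% (6 of 259) of those that fell. Among rising antiviral effectors it was found in 54.1% (20 of 37), among rising GTPases in 88.9% (8 of 9) and among rising MHC class I genes in 28.6% (4 of 14). A core of NF-kB sites, spelled GGG, any 2 bases, TTTCC, was found in 1.89% of all genes with a window, 1.95% of the tested genes and 4.17% of rising genes, and the STAT core, spelled TTC, any 3 bases, GAA, in 9.55%, 8.01% and 11.8%. A match is only a description of the letters. The windows of the antiviral, chemokine and antigen presentation genes with the smallest p and an ISRE match are shown, with the match in capitals, because these genes stand for 3 groups of the response. Oas1a, a synthetase at chr5:120907476-120907775 (minus strand, 3 antiviral genes of smaller p had no match or no window), has 2 overlapping matches that begin 20 and 14 bases before the start. Cxcl10, a chemokine at chr5:92348840-92349139 (minus strand), has 1 match that begins 213 bases before the start. B2m, the light chain of MHC class I at chr2:122147437-122147736 (plus strand, 4 genes of the list with smaller p had no match or no window), has 1 that begins 139 bases before the start.
Oas1a: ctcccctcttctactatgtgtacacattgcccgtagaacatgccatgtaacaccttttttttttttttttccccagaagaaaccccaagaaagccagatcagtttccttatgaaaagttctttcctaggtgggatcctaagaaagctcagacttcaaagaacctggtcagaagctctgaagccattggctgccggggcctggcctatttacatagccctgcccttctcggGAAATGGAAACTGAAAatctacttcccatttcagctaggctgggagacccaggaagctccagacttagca
Cxcl10: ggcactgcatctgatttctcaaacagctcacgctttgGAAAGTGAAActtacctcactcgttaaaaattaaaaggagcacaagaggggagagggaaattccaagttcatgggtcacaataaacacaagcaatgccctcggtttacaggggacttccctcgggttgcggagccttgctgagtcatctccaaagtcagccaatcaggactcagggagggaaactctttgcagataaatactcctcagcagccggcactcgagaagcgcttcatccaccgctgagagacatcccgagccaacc
B2m: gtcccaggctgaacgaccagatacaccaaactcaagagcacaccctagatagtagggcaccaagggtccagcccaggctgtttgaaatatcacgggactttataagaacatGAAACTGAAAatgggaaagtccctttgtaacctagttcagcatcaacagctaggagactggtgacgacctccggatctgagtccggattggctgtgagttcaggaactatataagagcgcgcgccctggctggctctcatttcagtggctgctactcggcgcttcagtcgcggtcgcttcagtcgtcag
These 3 genes differed in control level and in fold change. Oas1a had 2.14 and 1.28 FPKM in control and 46.3 and 48 FPKM under DMXAA (log2 fold change 4.79 ± 0.17). Cxcl10 had 1.61 and 0.377 FPKM in control and 25.4 and 20.1 FPKM under DMXAA (4.56 ± 0.27). B2m had 333 and 393 FPKM in control and 1019 and 1135 FPKM under DMXAA (1.59 ± 0.08), so its rise in FPKM was the largest and its fold change the smallest of the 3.

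Of 14 tested interferon response factors, which carry or restrain the interferon signal, 10 rose (71.4%, against 4.93% of all genes) and 0 fell. Their median log2 fold change was 0.62. Irf7, the factor that amplifies interferon transcription, had 0.714 and 0.15 FPKM in control and 15.8 and 11.6 FPKM under DMXAA (5.02 ± 0.26, adjusted p 1.47e-06 in edgeR). Stat2, a STAT member of the interferon-activated complex, had 4.21 and 1.49 FPKM in control and 33 and 21.5 FPKM under DMXAA. Its partner Irf9 rose by 2.15 and the feedback inhibitor Usp18, an ISG15 protease, by 5.15 on the log2 scale. Usp18 had 1.77 and 1.07 FPKM in control and 48 and 51.9 FPKM under DMXAA. Rises of Irf1, Socs3, Irf5, Stat3 and Jak2 were 0.29 to 1.25, and Socs1, another feedback inhibitor, was not called, with 7.6 and 4.34 FPKM in control and 8.92 and 5.57 FPKM under DMXAA. Irf8, a factor of myeloid cells, had 0 reads in all 4 libraries. The spread of 12 libraries left 5 of 15.

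Interferon transcripts were at or near 0 reads. Ifnb1, the interferon beta gene, had 2 reads (0.112 FPKM) in the WT-labelled control and 0 reads in the other 3 libraries, and all listed Ifna genes had 0 reads. A count of 0 allows up to 3 reads per library. In the libraries numbered 1 and 2, Ifnb1 had 21 and 208 reads in the WT-labelled DMXAA libraries and 0 and 1 in the CRE-labelled ones. Of the receptor genes, Ifnar2 rose (13.4 and 9.04 to 17.5 and 12.8 FPKM, log2 fold change 0.46 ± 0.09) and Ifnar1, with 14.2 and 9.61 FPKM in control and 13.8 and 11.1 FPKM under DMXAA, was not called.

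In the STING pathway itself, 5 of 13 tested genes rose (38.5%, against 4.93% of all genes) and 0 fell. Tmem173 had 16.3 and 11.6 FPKM in control and 20.9 and 15.1 FPKM under DMXAA (log2 fold change 0.38 ± 0.09, adjusted p 0.0362 in edgeR). The CRE-labelled control was lowest and the WT-labelled DMXAA library highest, and the ranges of the treatments overlapped. Tmem173 was also lower in the CRE-labelled libraries (log2 difference -0.49 ± 0.09, SE, adjusted p 0.0033 in edgeR), against a background of 36.8% of genes called between labels, 17.6% higher and 19.2% lower in CRE. Since each label is 1 pair of libraries and Lyz2 was nearly silent here, label and culture cannot be told apart, and Tmem173 does not check the labels. Zbp1, a sensor of Z-form nucleic acid, had 1 and 0.682 FPKM in control and 19.8 and 20.3 FPKM under DMXAA (4.58 ± 0.15), and the DNA-binding p200 protein Ifi204 had 14.5 and 8.73 FPKM in control and 48 and 36.5 FPKM under DMXAA (1.91 ± 0.10). Tbk1, with 11 and 10.3 FPKM in control and 11.6 and 9.43 FPKM under DMXAA, and Irf3, with 5.26 and 5.56 FPKM in control and 5.02 and 5.91 FPKM under DMXAA, were not called, nor was the cGAS gene Mb21d1, with 2.87 and 2.04 FPKM in control and 3.63 and 2.31 FPKM under DMXAA. Ikbke, a TBK1-related kinase, rose by 0.96 on the log2 scale. The spread of 12 libraries left 2 of 14 rises in this list and limma 3 of 13.

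Of 20 tested genes of MHC class I antigen presentation, 16 rose (80%, against 4.93% of all genes) and 0 fell. Their median log2 fold change was 1.46. The heavy chain genes H2-K1 and H2-D1 had 21.1 and 35.2 FPKM in control and 108 and 144 FPKM under DMXAA, and 62.6 and 72.3 FPKM in control and 249.8 and 277 FPKM under DMXAA. Tap1, a chain of the peptide transporter, had 1.52 and 0.793 FPKM in control and 13.7 and 9.39 FPKM under DMXAA (3.36 ± 0.13), and the immunoproteasome subunit Psmb9 had 0.15 and 0.0387 FPKM in control and 2.01 and 1.66 FPKM under DMXAA (4.28 ± 0.37). Nlrc5, the activator of class I transcription, had 0.654 and 0.267 to 4.52 and 2.29 FPKM. Reads of the H2 genes may be shared among near-identical relatives. The general chaperones of the endoplasmic reticulum Canx, Calr and Pdia3 were not called, with Calr at 378 and 449 FPKM in control and 358 and 465 FPKM under DMXAA, and Tapbpl was not called. Under the spread of 12 libraries 10 of 23 rose. Of class II genes, Cd74, the invariant chain, had 9.82 and 5.86 FPKM in control and 35.3 and 28.2 FPKM under DMXAA (2.05 ± 0.13), while H2-Aa, H2-Ab1 and H2-Eb1 had 0 reads in all 4 libraries and H2-DMa, with 2.33 and 1.84 FPKM in control and 3.89 and 3.09 FPKM under DMXAA, was not called.

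Macrophage-type RNA was measured beside these rises. For each gene the DMXAA mean minus the control mean was taken as a percent of the median DMXAA level in the 4 DMXAA libraries numbered 1 and 2. For 19 macrophage and leukocyte markers with a median of at least 100 FPKM this ranged from -0.0148% to 1.04%, with a median of 0.0158%, Cd14 at 1.04%, Cd53 at 0.853% and Lyz2 at 0.102%. For the 46 rising antiviral effectors the median was 14%, and 43 lay above 1.04%, the exceptions being Cmpk2, Ifit2 and Rsad2. All 12 GTPases (1.5% to 26.5%) and all 16 MHC class I genes (1.25% to 16.8%) lay above it, and so did 6 of 7 rising chemokines, with Ccl5 at 0.176%. The 1.04% is the value of 1 marker, Cd14, which had a mean of 20.55 FPKM in control and 24.66 FPKM under DMXAA and was not called. These percents are a description. The part of macrophage-type RNA was not tested for any of these rises, nor for those of Ctss, Lcp1 and Rac2.

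Of 14 tested chemokines, which attract leukocytes, 7 rose (50%, against 4.93% of all genes) and 0 fell. With the spread of 12 libraries 1 rose (Cxcl10). The monocyte attractants Ccl2 and Ccl7 were abundant before treatment. Ccl7 had 394 and 283 FPKM in control and 589 and 558 FPKM under DMXAA (0.79 ± 0.10), and Ccl2 had 388 and 268 FPKM in control and 519.7 and 485 FPKM under DMXAA (0.65 ± 0.10). Both DMXAA libraries were above both controls in each, as in 13.6% of all genes, and Ccl7 was named for its small p. Ccl8 had 12.1 and 8.41 to 25.9 and 26.2 FPKM and Ccl5 3.73 and 1.48 to 7.16 and 3.15 FPKM. The neutrophil attractants Cxcl1 and Cxcl5 differed more between labels than between treatments. Cxcl5 had 739 and 82.1 FPKM in control and 905 and 224 FPKM under DMXAA. Cxcl11, an interferon-stimulated relative of Cxcl10, was too low to be tested but had 2 and 0 reads in control and 73 and 69 under DMXAA, and Cxcl2 had 0 and 0 reads in control and 19 and 19 under DMXAA. Cxcl9 had 0 and 0 reads in control and 2 and 4 under DMXAA.

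Of 11 tested cytokines, 5 rose (45.5%, against 4.93% of all genes): Il1a, Il15, Il6, Il33 and Csf1. Il6, an inflammatory cytokine, had 3.52 and 3.09 FPKM in control and 6.41 and 7.1 FPKM under DMXAA (1.04 ± 0.16, adjusted p 0.00289 in edgeR). Il15, which sustains natural killer cells, had 1.19 and 0.334 FPKM in control and 4.15 and 2.53 FPKM under DMXAA (2.22 ± 0.29). Csf1, the macrophage growth factor, was high throughout, with 94.9 and 90.4 FPKM in control and 112 and 132 FPKM under DMXAA. The cytokine Tnf had 0 and 1 reads in control and 4 and 3 under DMXAA, and of the IL-12 family Il12a had 0 reads in all 4 libraries, Il12b 0 and 0 reads in control and 0 and 1 under DMXAA and Il23a 1 and 2 reads in control and 2 and 0 under DMXAA, so a change in these was not detectable at this depth. In the 12-library spread 0 cytokines were called by edgeR, against 5 in the 4-library fit.

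Of 20 tested NF-kB subunits, feedback genes and targets, 7 rose (35%, against 4.93% of all genes) and 0 fell. Their median log2 fold change was 0.12. Nos2, inducible nitric oxide synthase, had 6.25 and 3.01 FPKM in control and 30 and 11.2 FPKM under DMXAA (2.11 ± 0.11, adjusted p 1.51e-06 in edgeR), and both labels rose from different control levels. Sod2 had 14.2 and 6.04 to 25.6 and 11.5 FPKM and the ubiquitin-editing inhibitor Tnfaip3 1.9 and 1.16 to 3.1 and 1.97 FPKM. The inhibitor Nfkbia, with 46.3 and 36.8 FPKM in control and 51.3 and 37.9 FPKM under DMXAA, and the subunits Rela, Relb, Nfkb1 and Nfkb2 were not called. The spread of 12 libraries left 1 of 26. Of 9 tested pattern recognition receptors 3 rose, with Tlr3, the endosomal receptor for double-stranded RNA, at 1.34 and 0.662 FPKM in control and 6.44 and 3.42 FPKM under DMXAA (2.32 ± 0.14). Of 20 tested cell death genes 3 rose: Casp4, the inflammatory caspase that binds lipopolysaccharide, by 1.09, the necroptosis effector Mlkl by 0.79 and the death receptor Fas by 0.78 on the log2 scale. The receptor and cell death shares were 33.3% and 15%, against 4.93% of all genes. Under the spread of 12 libraries, and with any 1 library left out, 0 genes of either list were called in edgeR.

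**Figure D4:**
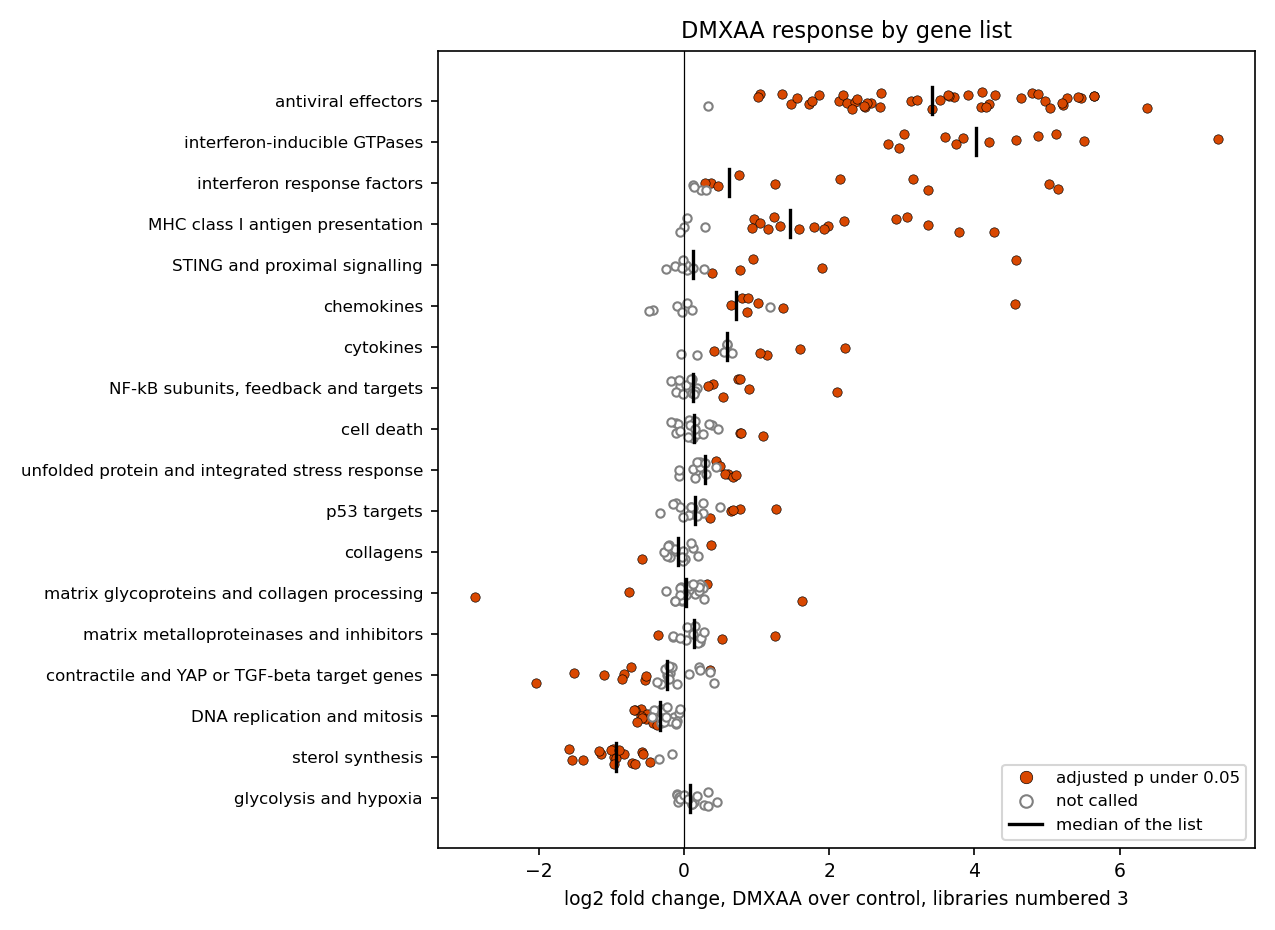
Log2 fold change of each tested member of 18 gene lists in the libraries numbered 3, filled where the adjusted p was under 0.05, with a bar at the median of the list. Medians lie at 3.42 for antiviral effectors, 4.02 for GTPases, 1.46 for MHC class I genes and -0.93 for sterol synthesis, and 0 of 16 glycolysis and hypoxia genes were called.

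Sterol synthesis, which makes cholesterol from acetyl-CoA under control of SREBP-2, was the list with most falls. Of its 19 tested members 17 fell (89.5%, against 3.23% of all genes) and 0 rose. The median log2 fold change was -0.93, and Dhcr7 and Sc5d were not called. Insig1, the sterol-regulated anchor of the SREBP pathway, had 11.3 and 13.4 FPKM in control and 3.3 and 4.97 FPKM under DMXAA (-1.58 ± 0.12, adjusted p 2.81e-05 in edgeR). Sqle, squalene epoxidase, had 21.9 and 30.8 FPKM in control and 9.88 and 13.4 FPKM under DMXAA (-1.16 ± 0.08), and Idi1 had 6.68 and 10.3 FPKM in control and 2.78 and 2.88 FPKM under DMXAA (-1.54 ± 0.15). In all 3 the treatments did not overlap, which was a condition for naming the largest falls. Hmgcs1, which makes HMG-CoA, had 18.1 and 28.1 FPKM in control and 9.35 and 13.3 FPKM under DMXAA (-1.0 ± 0.08). The count was 13 with DESeq2 and 2 with the spread of 12 libraries, and with 1 library left out of that fit it was 0. Ch25h, whose product 25-hydroxycholesterol restrains SREBP, had 5 and 2 reads in control and 16 and 26 under DMXAA, too few to be tested.

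Of 33 DNA replication and mitosis genes, 16 fell (48.5%, against 3.23% of all genes) and 0 rose. Their median log2 fold change was -0.33. Mki67, a marker of cycling cells, had 17.3 and 15.4 FPKM in control and 9.56 and 11.1 FPKM under DMXAA (-0.65 ± 0.10, adjusted p 0.00367 in edgeR), and Rrm2, the ribonucleotide reductase subunit, had 38.7 and 54.1 FPKM in control and 23.5 and 33.8 FPKM under DMXAA (-0.68 ± 0.08). The mitotic motor Kif11 had 13.1 and 12.9 to 7.9 and 8.22 FPKM. The changes were small, at most 0.68 on the log2 scale, and the treatments did not overlap in these 3 genes. Rrm2 and Kif11 were named for their small p, which favours this, and 16.4% of all genes had both DMXAA libraries below both controls. Top2a, another proliferation marker, was not called, with 41.6 and 38.3 FPKM in control and 37.4 and 36.1 FPKM under DMXAA. The count was 10 with DESeq2, 6 with limma and 0 with the spread of 12 libraries.

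Of 24 contractile and YAP or TGF-beta target genes, 8 fell and 1 (Ankrd1) rose, with a median log2 fold change of -0.23. These shares were 33.3% and 4.17%, against 3.23% falling and 4.93% rising over all genes. Acta2, smooth muscle actin and a marker of myofibroblasts, had 289.9 and 678 FPKM in control and 122 and 343 FPKM under DMXAA (-1.10 ± 0.09, adjusted p 3.33e-05 in edgeR). It fell within each label, but the CRE-labelled DMXAA library stayed above the WT-labelled control. Actg2, enteric actin, had 13 and 28.9 to 3.28 and 12.6 FPKM and Myl9, myosin light chain, 22 and 41.3 to 11.9 and 26.9 FPKM. The inhibitor of DNA binding genes Id1, Id2 and Id3, targets of BMP signalling, all fell, with Id2 at 8.05 and 2.69 FPKM in control and 1.37 and 1.01 FPKM under DMXAA (-2.04 ± 0.27). Under the spread of 12 libraries 0 of 25 were called in edgeR.

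Of 16 tested collagens, Col12a1 rose by 0.37 and Col7a1 fell by 0.58 on the log2 scale (6.25% in each direction, against 4.93% and 3.23% of all genes), and the median was -0.08. Both turned direction when 1 library was left out of a fit with treatment alone, from -0.16 to 0.90 and from -1.63 to 0.41, and under the spread of 12 libraries 0 were called in edgeR. Col1a1 had 465 and 1081 FPKM in control and 479.8 and 786 FPKM under DMXAA, Col1a2 332 and 440.1 FPKM in control and 338 and 419 FPKM under DMXAA and Col3a1 127 and 182 FPKM in control and 158 and 189 FPKM under DMXAA. The label separated Col1a1 more than the treatment did. Of 28 tested matrix glycoproteins and collagen-processing genes, Dcn and Thbs1 rose and Mgp and Postn fell. That is 7.14% in each direction, near the 4.93% and 3.23% of all genes. Dcn (decorin), a small proteoglycan that binds collagen, had 37.4 and 16.9 FPKM in control and 102 and 57.6 FPKM under DMXAA (1.62 ± 0.09, adjusted p 2.84e-06 in edgeR), and both labels rose. Mgp, which restrains calcification, had 4.65 and 1.63 FPKM in control and 0.728 and 0.138 FPKM under DMXAA (-2.88 ± 0.36). Fibronectin (Fn1), with 141 and 123 FPKM in control and 143 and 131 FPKM under DMXAA, and the collagen cross-linker Lox, with 139.9 and 301 FPKM in control and 183 and 307 FPKM under DMXAA, were not called. Of 14 metalloproteinases and inhibitors, Mmp13 (collagenase 3, 3.36 and 6.92 to 7.27 and 17.5 FPKM, 1.25 ± 0.12) and Mmp3 rose and Mmp9 fell. These shares were 14.3% and 7.14%, against the same 4.93% and 3.23%. Thbs1, Postn and Mmp9 also turned direction when 1 library was left out, and under the spread of 12 libraries 0 members of these lists were called in edgeR.

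Among stress lists, 6 of 17 unfolded protein and integrated stress response genes rose and 0 fell, with Trib3 at 19.3 and 32.4 to 36 and 46 FPKM and Ddit3 (CHOP) at 19 and 17.5 to 26.1 and 27.6 FPKM. The chaperone Hspa5 (BiP), with 189.9 and 235 FPKM in control and 204 and 253 FPKM under DMXAA, was not called. Of 18 p53 targets 5 rose, with Cdkn1a (p21), the cell cycle inhibitor, at 27.6 and 20.7 to 32.2 and 28.8 FPKM (0.36 ± 0.09, adjusted p 0.0365). Of 12 NRF2 antioxidant genes 2 rose, with Hmox1 (heme oxygenase) at 50.6 and 47.2 to 95 and 75.1 FPKM. Of 19 immediate early genes 3 rose (Fosl2, Klf4 and Nr4a1). Glycolysis and hypoxia genes gave 0 calls of 16, and of 23 growth factor receptors and fibroblast regulators 1 rose (Vegfa). Vegfa turned direction when 1 library was left out of a fit with treatment alone, from -0.59 to 1.71. In the order given, the shares that rose were 35.3%, 27.8%, 16.7%, 15.8%, 0% and 4.35%, against 4.93% of all genes. Under the spread of 12 libraries 0 members of these lists were called in edgeR.

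Among genes with a mean of at least 5 FPKM in the higher treatment and no overlap, the largest falls held Ifi27, Insig1, Idi1, Sqle, Id2, Actg2, AU021092 and 3 short predicted genes (Gm11663, Gm8666 and Gm5417), whose counts are uncertain. Ifi27 (ENSMUSG00000064215, chromosome 12, 103434211 to 103440239 in GRCm38), a mitochondrial protein whose gene family is known as interferon-inducible, had 38.8 and 34.1 FPKM in control and 7.77 and 7.16 FPKM under DMXAA (-2.27 ± 0.10, adjusted p 8.61e-07 in edgeR). It fell in both labels, against the direction of its relative Ifi27l2a, which had 80.6 and 59.9 FPKM in control and 314 and 340.4 FPKM under DMXAA (2.25 ± 0.12). Ifi27 stayed called with the spread of 12 libraries and with any 1 of the 4 libraries left out of that fit, as did Irf7, Mx2, Oas1a, Oas2, Oas3 and Zbp1.

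The fit favours genes whose change is alike in both labels, so the following is a description. Among the 546 rising genes the median log2 ratio of DMXAA to control was 0.69 in the WT-labelled pair and 0.77 in the CRE-labelled pair, and the CRE-labelled ratio was the larger in 365 genes. Mx1 moved from 1.38 and 0.0873 to 18.6 and 7.27 FPKM, in that order of labels, so that its control level was lower in CRE and its log2 ratio larger. With 4 libraries a difference of response between labels cannot be tested. Between labels, 28 of 47 antiviral effectors, 7 of 12 GTPases and 9 of 14 interferon response factors were called lower in CRE and 0 higher, against 19.2% of all genes.

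The response was then compared with that of the 8 BMDM libraries numbered 1 and 2, fitted together in 1 model of 12 libraries with the label as a term in each set. The response of those 8 is a mean over both labels. There 4542 of 12980 genes (35%) were called, 18.6% higher and 16.4% lower. Of the 546 rises in the fibroblast-type libraries, 301 (55.1%) also rose there, which is 15.8% of the 1908 rises among the same 11073 genes, and 29 fell. Of the 358 falls, 155 (43.3%) also fell there, 8.18% of 1894, and 18 rose. The background was 17.2% rising and 17.1% falling.

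The difference between the responses, numbered 3 minus numbered 1 and 2, was called for 268 of 12980 genes (2.06%), 91 positive (0.701%) and 177 negative (1.36%). Without either WT-labelled library numbered 3 it was called for 7 genes and without either CRE-labelled one for 16. Without WT-labelled DMXAA replicate 1 it was called for 488, without WT-labelled DMXAA replicate 2 for 159, and without 1 of the 4 CRE-labelled libraries numbered 1 and 2 for 97 to 108. Of 51 antiviral effectors 17 had a negative difference and 0 a positive one, and of 16 GTPases 4 and 0. The filter over 12 libraries favours negative differences, because some members passed only through the DMXAA libraries numbered 1 and 2. Ifit1bl1, for example, had 236 to 1506 FPKM there and at most 0.561 FPKM in the libraries numbered 3. These counts are thus no independent result. Isg15 had 3.55 to 13.5 FPKM in the controls numbered 1 and 2 and 1135 to 3753 FPKM under DMXAA, 367-fold higher on average, against 38.9-fold here (log2 difference -3.07 ± 0.59, adjusted p 0.042 in edgeR). Ifit3 rose 1910-fold against 48.5-fold (-4.95 ± 0.67, adjusted p 0.0149), and Irf7 321-fold against 32.3-fold (-3.03 ± 0.50, adjusted p 0.0277). Nos2, at 0 reads in each control library numbered 1 and 2, rose at least 1090-fold there against 4.54-fold here, with a DMXAA level of 0.126 to 84.4 FPKM over those 4 libraries. Ccl5 rose 2090-fold against 2.02-fold, and Il6 at least 42.8-fold against 2.08-fold, as means over both labels. Over the same 4 DMXAA libraries Ccl5 had 35.5 to 3122 FPKM and Il6 0 to 5.53 FPKM. Il6 thus did not rise in each of them.

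Of 23 MHC class I genes 1 (Tapbpl) had a called difference, and of 20 sterol synthesis genes 1, which was negative, against 2.06% of all genes. H2-K1 rose by 2.21 here and 1.39 there and B2m by 1.59 and 1.41 on the log2 scale. Oas2 and Oas3 rose by 5.65 and 6.38 here and 5.09 and 5.0 there, with differences of 0.88 ± 0.58 and 1.69 ± 0.75 (SE) that were not called. The median of sterol synthesis genes was -0.93 here and -0.77 there. For DNA replication and mitosis the test called 0 of 33 in edgeR, with medians of -0.33 and -1.37. Ifi27 fell here and had 54.7 to 62.8 FPKM in control and 44.3 to 56.8 FPKM under DMXAA there (difference -2.02 ± 0.17, adjusted p 0.00233 in edgeR). Cd74 rose more here (1.75, adjusted p 0.0481).

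**Figure D5:**
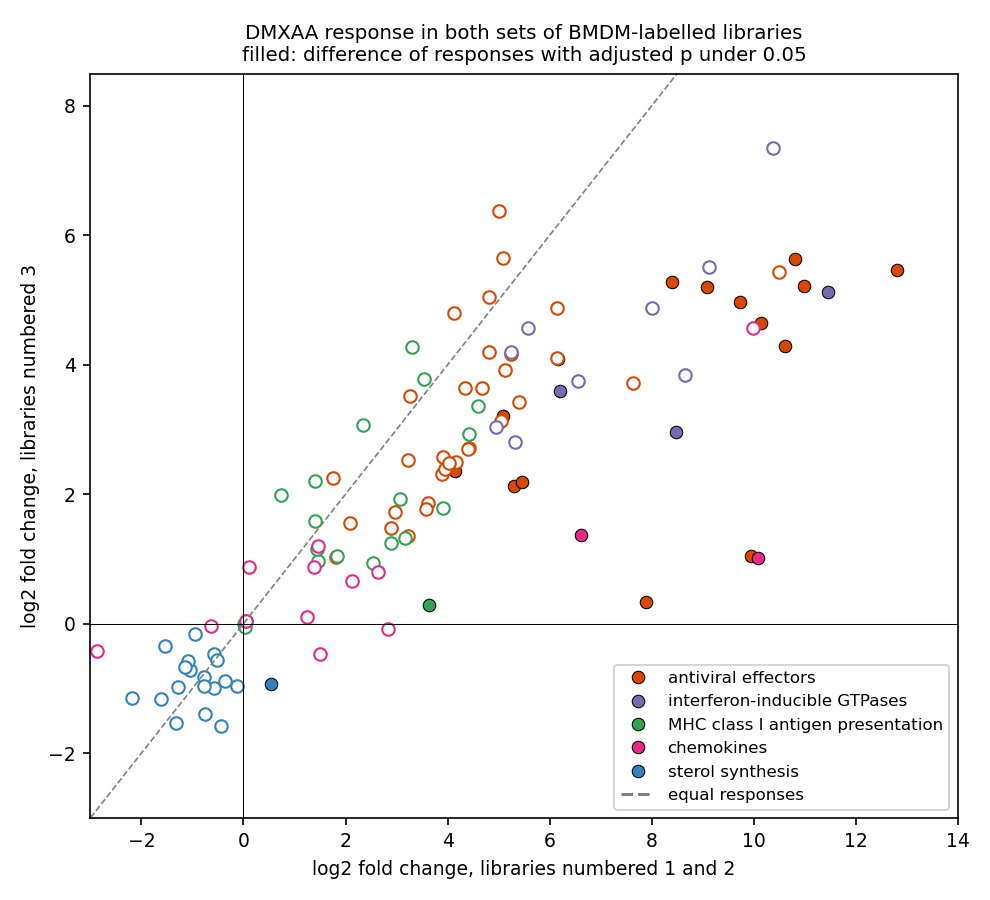
Log2 fold change under DMXAA of the members of 5 lists in the libraries numbered 3 (vertical axis) against those numbered 1 and 2 (horizontal axis), filled where the difference of responses had an adjusted p under 0.05, with a dashed line of equal responses. The filled antiviral points lie to the right of the line, such as Ifit3 at 10.81 and 5.64, whereas Oas3 lies at 5.0 and 6.38, and the axes share no control library.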

How the data were processed

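Per the submitters' processing notes, base calling with CASAVA 1.8, fastp, HISAT2 2.0.5, featureCounts 1.5.0-p3 and DESeq2 1.20.0 were used on mm10 (GRCm38), and strandedness is not given in the sources used here. The authors deposited raw counts per gene and FPKM values for 54532 genes. The deposited log2 fold changes and p-values are the authors' own comparisons and were not used. All per-library columns matched a library (0 unmatched).

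Counts were scaled by TMM and tested in R 4.3.3 with edgeR 4.0.16 (quasi-likelihood F test, two-sided), with Benjamini-Hochberg adjustment over all genes with at least 1 FPKM in at least 2 libraries of the fit. The response used 4 libraries with the label as a term. The difference used 12 libraries with set, label within set and DMXAA within set. Each standard error is the absolute log2 fold change over the root of F. Ratios to all-0 controls used a floor of 3 counts per library. Fold changes of the difference comparison are ratios of mean TMM-normalised counts with that floor, over both labels. The 4 libraries, the lists and the rules were chosen with earlier results of these data known.

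Named genes are a fixed list (from Tmem173 to Cdkn1a), the 10 largest rises and falls among called genes with a mean of at least 5 FPKM and no overlap, the 5 largest differences in each direction, and up to 4 members per list of smallest p. Other list members named, and genes in the closing section, were chosen after their values were seen. Promoters came from a RefSeq table that matched 72.6% of the tested genes. Alternatives were median-of-ratios (RLE) scaling, other filters, DESeq2 1.42.0, limma 3.58.1, other thresholds, the spread of 12 libraries, a replicate block and leaving out each library. Total counts per library, 16470157 to 18912887, set the counting error, which the models include beside the spread of the fit. The Poisson interval covers counting error only. No molecular identifiers were used. Single values of a few list members are not reported here. Figures used matplotlib 3.10.9.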

Additional observations from a re-analysis of the deposited data

Results flagged for a closer look

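The DMXAA response of the libraries numbered 3 differed from that of the BMDM libraries numbered 1 and 2 for 268 genes by the test of the difference in edgeR. Among named genes, 31 had such a difference. The value given for each is the log2 fold change in the libraries numbered 3 minus that in the libraries numbered 1 and 2.

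The difference was negative for 24 named genes. Inducible inflammatory genes had Nos2 -12.62, Ccl5 -9.05, Il6 -6.18 and Ccl8 -5.23. Of these, Nos2, Il6 and Ccl8, together with Gbp4 (-10.96), Lipg (-10.49) and Serpina3f (-10.08), had at most 3 counts in each control library numbered 1 and 2, so the fitted values depend on the prior count. Against the floor of 3 counts the mean rise in the libraries numbered 1 and 2 was at least 724-fold for Gbp4, 313-fold for Lipg, 146-fold for Serpina3f and 27.4-fold for Ccl8. Antiviral effectors had Ifit1bl1 -11.39, Ifit3b -7.05, Mx1 -5.90, Ifi44 -5.51, Ifit3 -4.95, Ifit1 -4.65, Mx2 -3.59 and Isg15 -3.07, and Ifit1bl1 and Ifit3b have near-identical relatives. The GTPases Iigp1 and Ifi47 had -5.98 and -2.60. Irf7 had -3.03, Usp18 -2.92, Ifi204 -2.73, Zbp1 -2.46 and Ifi27 -2.02. The cell death genes Mlkl and Casp12 had -3.36 and -2.84.

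The difference was positive for 7 named genes. These were Lyz2 (3.69), Cd53 (1.49), Cd74 (1.75), Igfbp4 (2.15), which binds insulin-like growth factors, the cyclooxygenase gene Ptgs1 (2.31), Add3 (2.54) and 4930579G24Rik (1.91). Add3, 4930579G24Rik, Ptgs1, Igfbp4 and Lyz2 fell in the libraries numbered 1 and 2.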

How the results depend on the processing

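The 904 calls of the response became 883 with RLE scaling, 1596 without the filter beyond 1 count (912 higher, 684 lower), 484 with DESeq2 (336 and 148), 358 with limma on log2(FPKM + 1) (262 and 96), 276 with a pseudocount of 0.1 (213 and 63), 248 with the study's threshold of an unadjusted p and 2-fold (204 and 44), 400 at an adjusted p under 0.01 (297 and 103), 107 with the spread of 12 libraries (104 and 3) and 0 without the label term. Leaving out 1 library gave 0 to 88, which includes the fits that kept the label term with the spread of 12 libraries (34 without the WT-labelled control, 33 without the WT-labelled DMXAA library and 13 without either CRE-labelled one). Those fits were added after the data were seen. In fits with treatment alone the difference between labels enters the spread.

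The 268 differences became 678 without the filter, 1414 with DESeq2, 653 and 569 with limma, 1500 with the study's threshold and 25 at 0.01, and 7 to 488 when 1 library was left out. The 4076 label calls became 2646 with a filter at 5 FPKM, 2300 with DESeq2, 710 with the study's threshold and 2400 at 0.01. The 4542 calls of the libraries numbered 1 and 2 became 2278 with the study's threshold and 2282 at 0.01. Against 53.1% of the 4542, 47.7% of the 4076 and 34% of the 268, the positive share of calls moved past 10 points only for the label count with the study's threshold (36.2%) and for the difference with the study's threshold (47.7%), at 0.01 (8%), without 1 CRE-labelled library numbered 1 or 2 (17.6% to 22.7%) and without 1 library numbered 3 (12.5% to 14.3%).

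The label term of the 4-library fit pairs 1 control with 1 DMXAA library per label. No pairing by number could be added there because the 4 libraries share only 1 number. With a replicate block within the label, the difference gave 270 calls and the response of the libraries numbered 1 and 2 gave 5267. Deviations of control and DMXAA by number correlated at 0.616 (WT), 0.0294 (CRE) and 0.0158 (across labels). Libraries of 1 number thus shared a deviation in WT but hardly in CRE, and the main fits did not pair by number.

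Of 104 called named genes, 93 kept 1 direction in every alternative. The other 11 turned only when a library was left out with treatment alone. Their log2 fold changes then ranged from -0.16 to 0.90 (Col12a1), -1.63 to 0.41 (Col7a1), -0.55 to 2.44 (Cxcl1), -1.89 to 4.36 (Il33), -0.16 to 1.42 (Lpl), -1.08 to 0.39 (Mmp9), -0.19 to 2.51 (Notch3), -3.40 to 1.86 (Postn), -0.44 to 1.04 (Thbs1), -0.17 to 1.79 (Vcam1) and -0.59 to 1.71 (Vegfa). All 31 named differences kept their direction, and 26 stayed called with the block.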

Other observations

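Several groups of genes outside the lists also changed, and these were chosen after their values were seen. The p200 family, DNA-binding proteins of the innate response, rose beyond Ifi204: Ifi202b went from a mean of 44.7 to 146 FPKM (log2 fold change 1.76 ± 0.12), Ifi203 from 3.1 to 19.8 FPKM, Mndal from 1.6 to 9.3 FPKM and Ifi211 from 4.93 to 17.4 FPKM. Members of this family share sequence, so the split of reads among them is uncertain. Slfn2, a Schlafen protein, went from 5.52 to 50.9 FPKM (3.22 ± 0.10) and Lgals3bp, a secreted galectin-binding protein, from 35 to 198 FPKM (2.53 ± 0.09). The acute-phase genes Saa3, Lcn2 and Hp went from 78.6 to 344 FPKM, 42.3 to 103 FPKM and 15 to 41.3 FPKM. Of single lipid genes, Elovl6, a fatty acid elongase, fell by 1.07 and Fasn, fatty acid synthase, by 0.65 on the log2 scale, and Acat2 and Stard4, of cholesterol handling, by 0.81 and 0.69. The mitochondrial ribosomal RNA mt-Rnr1 went from 418 to 1023 FPKM (1.31 ± 0.08).

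Some levels set the fibroblast-type libraries apart from the other BMDM libraries before and after treatment, and are given as values. Mdm2, the ubiquitin ligase of p53 (chromosome 10), had 1050.0 and 1202 FPKM in control and 1203 and 1183 FPKM under DMXAA, against 22.2 to 110.2 FPKM in the other 8 libraries. Its neighbours Slc35e3 and Nup107 had 398 to 418 and 17.1 to 23.6 FPKM against 2.38 to 5.39 and 2.14 to 9.27 FPKM, while Rap1b, next along the chromosome, had 54.6 to 74.3 FPKM against 155.1 to 637 FPKM. Cdkn2a, the cell cycle inhibitor locus of p16 and p19, had 139 to 194 FPKM against 0.0529 to 2.60 FPKM, and Trp53 had 38.1 to 49.1 FPKM against 14.6 to 19.6 FPKM. None of these was called in the DMXAA response of edgeR.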
